A study of Homo sapiens with 15 samples.

Results

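NICD1 is the intracellular domain of the receptor NOTCH1. The 3 libraries of cells with a doxycycline-induced NICD1 were compared with 3 libraries of isogenic empty vector cells (EV), 6 of the 15 libraries in the series. The members were chosen by their sample titles and descriptions. The comparison covers every gene that passed a filter on low counts, 15122 of 31352 gene identifiers. The other 9 libraries carry NICD2, NICD3 or NICD4 and enter the shared estimate of the spread and 1 comparison at the end. PolyA RNA was sequenced from each.

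The genotype fields give HCT116, a human colorectal carcinoma line, whereas the descriptions give U373, a glioma line. How much doxycycline was added and for how long is not given in the labels, nor is its use in EV cells or the origin of each line as a clone or a pool. Therefore a difference between the lines that was present before induction and an effect of NICD1 cannot be told apart. Of colorectal epithelial markers, EPCAM stood at 222 ± 21.8 CPM with NICD1 and 152 ± 7.16 CPM with EV (SD, n = 3 libraries each, as throughout). The keratins KRT8, KRT18 and KRT19 were read in every library, while CDX1 had 0 reads and CEACAM5 had 1 read over the 3 NICD1 libraries and 1 over the 3 EV libraries. The 16 epithelial markers summed to 12480 to 15530 CPM in the NICD1 libraries and 2093 to 2670 CPM in the EV libraries, mostly from keratins. Of astrocyte and glioma markers, OLIG1 and FABP7 had 0 reads in all 6 libraries. AQP4 and OLIG2 had 0 over NICD1 and 1 over EV each, and GFAP had 99 reads over NICD1 and 129 over EV. The leukocyte gene PTPRC had 0 reads in both groups. Other astrocyte and glioma markers were read, among them NES with 1212 reads over NICD1 and 2384 over EV and SLC1A3 with 680 and 1655. CSPG5 had 582 and 625, and BCAN had 359 and 225. VIM, of the same list, had 30 reads over NICD1 and 1745 over EV. The list summed to 61.8 to 67.6 CPM with NICD1 and 85.0 to 87.6 CPM with EV. Of gut markers CDX2 had 2327 reads over NICD1 and 1422 over EV, whereas LGALS4, CDH17, CEACAM6, MUC13 and GPA33 had at most 5 over NICD1 and 14 over EV. The labels' conflict over the line is not settled by these counts.

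NOTCH receptors are membrane proteins that, after a ligand on a neighbouring cell pulls on them, are cut by an ADAM protease and then by gamma-secretase. The released intracellular domain enters the nucleus, binds the DNA-binding protein RBPJ with a Mastermind coactivator, and turns on genes such as those of the HES and HEY repressors. In the intestine the pathway is known for keeping progenitors and for steering cells away from the secretory fate. Delivering the intracellular domain alone bypasses ligand and cleavage.

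Levels are given in CPM, reads per 1000000 of a library total scaled by its TMM factor (a factor that sets most genes level between libraries), and changes as log2 differences of NICD1 minus EV ± SE from a limma model, with p adjusted by Benjamini and Hochberg over the 15122 genes. The words rose and fell are kept for genes with an adjusted p under 0.05. NOTCH1 itself stood at 26.9, 30.2 and 27.9 CPM with NICD1, against 30.5, 32 and 28.4 CPM with EV (log2 change -0.10 ± 0.08, adjusted p = 0.298; -0.74 with the GC trend described below removed, which passes the test), and at 27.7, 23 and 31.2 CPM on average with NICD2, NICD3 and NICD4. The groups overlap, so the count over the whole gene does not show the introduced domain, and directions below are those of the libraries labelled NICD1. Of 9 tested direct NOTCH targets, 6 rose and 1 fell (median log2 change 0.79, and 0.78 with the GC trend removed), against the shares of all genes given below. Among them was HES1, a repressor of differentiation genes, at 39.6 ± 2.78 CPM with NICD1 and 19.4 ± 0.631 CPM with EV (log2 change 1.03 ± 0.08).

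Library totals ran from 15648211 to 18875409 reads with NICD1 and from 18246214 to 24484366 with EV. The TMM factors ran from 0.869 to 0.97 with NICD1 and from 1.21 to 1.32 with EV. A read was found for 19430 to 20337 genes in an NICD1 library, against 22730 to 24199 in an EV library. The 100 genes with the most reads held 28% to 29.7% of the reads with NICD1 and 22.3% to 24.4% with EV. Without TMM factors each change shifted by -0.456 at the median. Replicate 2 of NICD1 stood further from its group than the others, with 110 of 11530 genes over 2-fold away from the mean of the other two NICD1 libraries, against 6 and 34 for replicates 1 and 3. Mitochondrial transcripts took 3.83% to 4.72% of the reads with NICD1 and 6.02% to 6.14% with EV.

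In NICD1 cells 11400 genes differed from EV (75.4% of those tested), of which 5381 rose (35.6%) and 6019 fell (39.8%). By at least 1 on the log2 scale, 2473 rose (16.4%) and 2789 fell (18.4%). All 3 NICD1 libraries lay above all 3 EV libraries in 5718 genes (37.8%) and below them in 6459 (42.7%). With so wide a background, a gene list is described by how far its counts and its median depart from these shares and from the median change of all tested genes, -0.083. From library totals alone 3308 genes rose and 8486 fell. Without NICD1 replicate 2, 5046 rose and 5450 fell.

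The change followed the GC content of the transcript. Median log2 change ran from -0.683 in the 10% of genes with the least GC to 0.815 in the 10% with the most. Across 14737 genes with known GC content the Spearman correlation was 0.455, a description across genes that share their libraries. Removing each library's GC trend left 6102 risen (41.4%) and 4289 fallen genes (29.1%), a median change of 0.11, and 7867 genes called with the same sign both ways, while 642 were called with opposite signs. The change also followed transcript length. In the 10% of genes with the shortest transcripts, of 59 to 1185 bases, the median was 0.758 and 55.4% rose. In the 10% with the longest, from 7290 bases, it was -0.481 and 18.7% rose. With the GC trend removed these medians were 0.794 and -0.031, so the short transcripts stayed high. Medians with the GC trend removed are therefore given beside those of the gene lists, as the GC-corrected median. Whether the GC and length trends come from the cells or from library preparation was not tested.

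**Figure D1:**
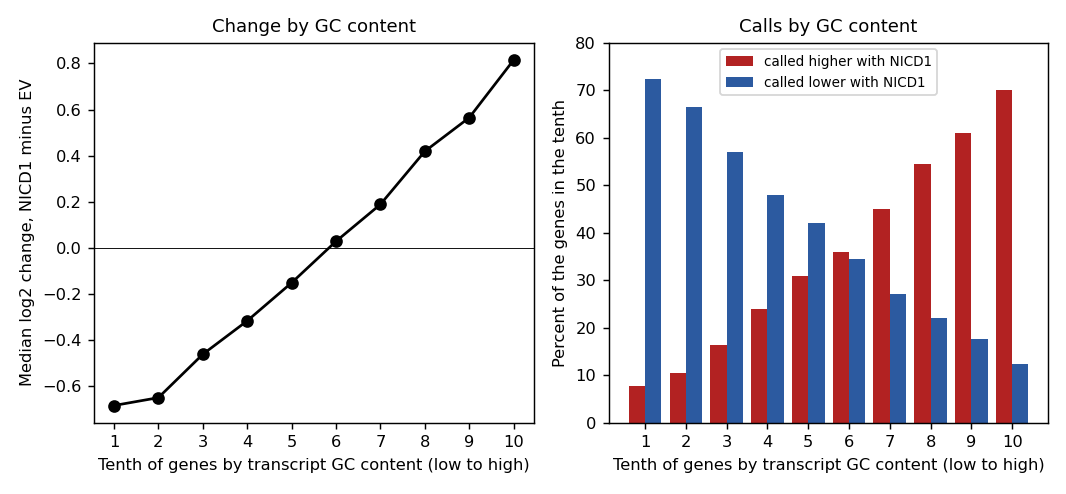
Left, median log2 change of NICD1 minus EV in steps of 10% of 14737 genes ordered by transcript GC content. Right, percent of the genes in each step called higher (red) or lower (blue) with NICD1 at an adjusted p under 0.05; the median runs from -0.683 to 0.815.

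Genes outside the NOTCH and keratin lists with the largest rises included cytoskeletal, membrane and signalling genes. COBL, an actin filament nucleator (chr7:51083909-51384515 on GRCh37), stood at 19.4, 17.7 and 19.1 CPM with NICD1, against 0.181, 0.278 and 0.23 CPM with EV (log2 change 6.06 ± 0.13, adjusted p = 6.1e-13). ALPP, the placental alkaline phosphatase, stood at 20.6, 22.1 and 16.8 CPM with NICD1, against 0.453, 0.339 and 0.268 CPM with EV (log2 change 5.62 ± 0.20). The groups lay far apart in both genes, with EV libraries under 0.5 CPM. CITED4, a coactivator that binds CBP and p300, stood at 13.9, 22.4 and 10.5 CPM with NICD1, against 0.317, 0.216 and 0.23 CPM with EV (log2 change 5.61 ± 0.33), highest in NICD1 replicate 2. RBM47, an RNA-binding protein of epithelia, averaged 27 ± 5.19 CPM with NICD1 and 0.565 ± 0.0629 CPM with EV (log2 change 5.44 ± 0.18). ZFR2, a zinc finger gene, averaged 35.8 ± 2.23 CPM with NICD1 and 0.743 ± 0.102 CPM with EV (log2 change 5.50 ± 0.14).

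Genes of growth factor signalling changed in both directions. IGFBP6, which binds and sequesters IGF2, stood at 211, 242 and 184 CPM with NICD1, against 12.6, 8.58 and 9.91 CPM with EV (log2 change 4.36 ± 0.17, adjusted p = 6.3e-11). No NICD1 library overlapped an EV library, which the rule for the 25 largest rises required. IGF2 itself fell (2.94 CPM with NICD1 against 8.27 CPM with EV, log2 change -1.48 ± 0.13), as did the receptors IGF1R (log2 change -1.84 ± 0.13) and IGF2R (log2 change -1.21 ± 0.16). TGFA, a ligand of the EGF receptor, stood at 13, 11.5 and 13.7 CPM with NICD1, against 1.22, 0.771 and 1.19 CPM with EV (log2 change 3.54 ± 0.16). EREG, another ligand of the family, went the other way with 1, 1 and 0 reads with NICD1, against 72, 100 and 91 with EV, an EV over NICD1 ratio of 77.5 (21.2 to 643), where the brackets hold the exact 95% binomial interval of counting error. EGF also fell (0.1 CPM with NICD1 against 0.826 CPM with EV, log2 change -2.49 ± 0.54). EGFR did not pass the test (10.8 ± 3.13 CPM with NICD1 and 12.5 ± 1.57 CPM with EV, log2 change -0.25 ± 0.27), and ERBB3 rose (25.3 CPM with NICD1 against 12 CPM with EV, log2 change 1.07 ± 0.09).

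PPARG, a nuclear receptor of lipid metabolism and colonocyte differentiation, stood at 12.2, 7.78 and 14.9 CPM with NICD1, against 0.317, 0.586 and 0.765 CPM with EV (log2 change 4.28 ± 0.30), with NICD1 replicate 2 the lowest of its group. DHRS3, a retinaldehyde reductase, averaged 64.5 ± 5.02 CPM with NICD1 and 3.88 ± 0.253 CPM with EV (log2 change 4.03 ± 0.12). SERINC2, of the serine incorporator family, averaged 216 ± 28 CPM with NICD1 and 14.3 ± 0.552 CPM with EV (log2 change 3.91 ± 0.13). THBS1, the matricellular protein thrombospondin-1, averaged 19.4 ± 4.68 CPM with NICD1 and 1.22 ± 0.0657 CPM with EV (log2 change 3.91 ± 0.21). DHRS3, SERINC2 and THBS1 were each over 10 times as high with NICD1. Regulators of ion transport were also among the 25 largest rises: FXYD3 (18.5 CPM with NICD1 against 0.464 CPM with EV, log2 change 5.24 ± 0.29) and FXYD4 (8.22 CPM with NICD1 against 0.753 CPM with EV, log2 change 3.37 ± 0.25), both modulators of the sodium pump. LRRC26 (7.93 CPM with NICD1 against 0.579 CPM with EV, log2 change 3.62 ± 0.33) is an auxiliary subunit of a potassium channel. In all of these genes every NICD1 library lay above every EV library, which the rule for the 25 largest rises required. Others of the 25 were PCDH1, KRTAP3-1, TMC5, FAM131C, CRACR2B, EPN3, PPP1R1A, TMEM238, C6orf132 and TINAGL1, with log2 changes from 3.27 to 4.42.

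**Figure D2:**
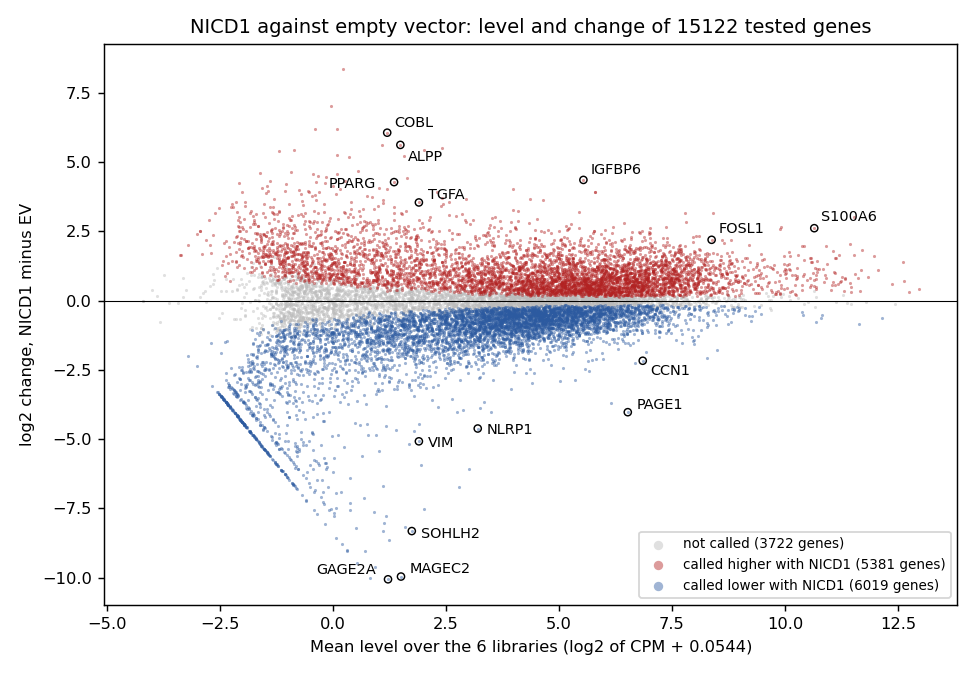
Log2 change of NICD1 minus EV against the mean level over the 6 libraries, on a log2 scale of CPM plus the pseudocount, for 15122 genes; red and blue points were called higher or lower with NICD1. The slanted row of blue points at the lower left is made of genes with no read in any NICD1 library, whose change is set by the EV level and the pseudocount.

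Regulators of the epithelial state rose as a group: of 17 tested members, 14 rose and 2 fell (median log2 change 1.54, GC-corrected 1.17), against 35.6% rising among all genes. GRHL2, a transcription factor that maintains epithelial junctions, had 95, 89 and 126 reads with NICD1, against 1, 0 and 2 with EV. OVOL2, a zinc finger repressor of mesenchymal genes, averaged 8.5 ± 0.547 CPM with NICD1 and 1.36 ± 0.153 CPM with EV (log2 change 2.60 ± 0.17). ELF3, an epithelial ETS factor, averaged 32.4 ± 3.97 CPM with NICD1 and 6.19 ± 1.08 CPM with EV (log2 change 2.39 ± 0.15). ST14, the membrane protease matriptase, averaged 301 ± 32.9 CPM with NICD1 and 53.8 ± 0.555 CPM with EV (log2 change 2.47 ± 0.11). MAL2, a protein of apical transport, went the other way with 0, 0 and 0 reads with NICD1, against 42, 52 and 39 with EV (at least 26.1-fold lower with NICD1).

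Junction genes rose more often than they fell. Of 14 cadherin and desmosome genes, 9 rose and 4 fell (median 0.52, GC-corrected 0.63). The desmosomal cadherins DSC2 (10.2 CPM with NICD1 against 1.31 CPM with EV, log2 change 2.92 ± 0.15) and DSC3 (1.67 CPM with NICD1 against 0.21 CPM with EV, log2 change 2.78 ± 0.31) and the classical cadherin CDH1 (15, 12.6 and 15.8 CPM with NICD1, against 3.53, 3.89 and 3.87 CPM with EV, log2 change 1.93 ± 0.11) were among those that rose. Of 16 tight junction genes, 11 rose and 5 fell (median 0.51, GC-corrected 0.81), led by the polarity gene CRB3 (29.9 CPM with NICD1 against 4.67 CPM with EV, log2 change 2.67 ± 0.13) and by CLDN7 (158 CPM with NICD1 against 36.7 CPM with EV, log2 change 2.11 ± 0.07). The hemidesmosomal integrin ITGB4 averaged 126 ± 16.7 CPM with NICD1 and 23.3 ± 2.04 CPM with EV (log2 change 2.43 ± 0.12), whereas ITGA2, an alpha chain of collagen-binding integrin, fell (2.39 CPM with NICD1 against 9.07 CPM with EV, log2 change -1.89 ± 0.23).

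S100 genes, small calcium-binding proteins, mostly rose: of 13 tested members, 10 rose and 0 fell (median 1.39, GC-corrected 1.19, 1.27 without NICD1 replicate 2). S100A6 stood at 3829, 4836 and 3423 CPM with NICD1, against 826, 522 and 637 CPM with EV (log2 change 2.62 ± 0.20). S100A2 averaged 300.5 ± 68.5 CPM with NICD1 and 56.1 ± 12.8 CPM with EV (log2 change 2.42 ± 0.22). S100A11 averaged 260.1 ± 11.3 CPM with NICD1 and 67.5 ± 14.3 CPM with EV (log2 change 1.96 ± 0.13). Of 6 metallothionein and zinc response genes 4 rose and 1 fell (median 1.68, GC-corrected 1.60). MT2A, which binds zinc and copper, stood at 352 ± 66.7 CPM with NICD1 and 73.8 ± 16.8 CPM with EV (log2 change 2.26 ± 0.20). MT1E stood at 330.1 ± 19.3 CPM with NICD1 and 96.1 ± 20.8 CPM with EV (log2 change 1.80 ± 0.13). Their near-identical copies can share reads, which makes the split between MT1 genes uncertain.

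Extracellular proteases and their inhibitors changed in both directions, with 10 of 19 rising and 5 falling (median 0.80, GC-corrected 0.58). PLAU, the urokinase plasminogen activator, stood at 90.6, 81.3 and 99 CPM with NICD1, against 14.5, 14.5 and 15.3 CPM with EV (log2 change 2.60 ± 0.09). By contrast the tissue-type activator PLAT fell to 5.4 CPM with NICD1 against 11.6 CPM with EV (log2 change -1.09 ± 0.33). MMP9 rose (4.79 CPM with NICD1 against 0.608 CPM with EV, log2 change 2.84 ± 0.29) and MMP14 fell (9.39 CPM with NICD1 against 20.4 CPM with EV, log2 change -1.10 ± 0.13). ADAM19, a membrane metalloprotease, stood at 1.72, 1.5 and 2.35 CPM with NICD1, against 27.3, 32.3 and 27.3 CPM with EV (log2 change -3.95 ± 0.22). Ephrins are membrane-bound ligands of the Eph receptors that set cell boundaries. Of 14 ephrin and Eph receptor genes 10 rose and 4 fell (median 0.72), against 6 and 4 with the GC trend removed (median 0.26). EFNA3 rose (23.9 CPM with NICD1 against 5.5 CPM with EV, log2 change 2.11 ± 0.23), and the receptor EPHA2 fell (log2 change -0.20 ± 0.08). Ephrin B ligands split: EFNB2 rose (log2 change 1.71 ± 0.12) and EFNB3 fell (log2 change -3.08 ± 0.45). HOX genes, which set position along the body axis, rose in 13 of 25 and fell in 5 (median 0.61, GC-corrected 0.62). The 13 that rose belong to the B, C and D clusters, and 4 of the 5 that fell to the A cluster: HOXB9 (19 CPM with NICD1 against 6.86 CPM with EV, log2 change 1.46 ± 0.09) and HOXC9 (28.8 CPM with NICD1 against 10.9 CPM with EV, log2 change 1.39 ± 0.19) rose, and HOXA3 (3.42 CPM with NICD1 against 7.6 CPM with EV, log2 change -1.17 ± 0.19) and HOXB5 (0.264 CPM with NICD1 against 0.908 CPM with EV, log2 change -1.76 ± 0.51) fell.

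Ribosomal protein genes mostly rose, whereas other lists of translation genes were mixed unless the GC trend was removed. Of 39 translation factors 19 rose and 14 fell (median 0.13, GC-corrected 0.49), against 26 and 5 with the GC trend removed. Of 20 tRNA synthetases 10 rose and 8 fell (median 0.17, GC-corrected 0.24), against 12 and 2 with that trend removed. Of 71 cytosolic ribosomal protein genes, 67 rose and 0 fell (median 0.93, GC-corrected 1.18, 0.47 from library totals alone, 0.85 without NICD1 replicate 2). These transcripts are short, with a median of 1860 bases, and the shortest 10% of all genes had the median of 0.758 given above. RPL36 stood at 3697, 4979.8 and 3111 CPM with NICD1, against 1279.8, 778 and 921 CPM with EV (log2 change 1.99 ± 0.25), with NICD1 replicate 2 and EV replicate 1 the highest of their groups and no overlap. RPLP2, of the ribosomal stalk, averaged 5882 ± 1843 CPM with NICD1 and 1404 ± 359.7 CPM with EV (log2 change 2.05 ± 0.29). Ribosomal protein genes have many processed pseudogenes, so part of their reads could have been counted elsewhere. Of 67 mitochondrial ribosomal proteins, 44 rose and 11 fell (median 0.70, GC-corrected 0.87), for example MRPL23 (608 CPM with NICD1 against 119 CPM with EV, log2 change 2.34 ± 0.27) and MRPL27 (632 CPM with NICD1 against 192 CPM with EV, log2 change 1.72 ± 0.23).

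Nuclear genes of the respiratory chain mostly rose, and their transcripts are also short, with a median of 1370 bases in complex I. In complex I, which takes electrons from NADH, 25 of 35 rose and 2 fell (median 0.98, GC-corrected 1.00). NDUFA11 stood at 158, 252 and 137 CPM with NICD1, against 52, 31.7 and 35.5 CPM with EV (log2 change 2.18 ± 0.31). NDUFS1, the largest subunit, fell (28.8 CPM with NICD1 against 65.3 CPM with EV, log2 change -1.17 ± 0.15). In complexes II to IV 18 of 24 rose and 1 fell (median 0.71, GC-corrected 1.03), and in ATP synthase 10 of 15 rose and 1 fell (median 0.96, GC-corrected 1.08). COX8A, a cytochrome c oxidase subunit, averaged 481 ± 44.7 CPM with NICD1 and 157 ± 32.9 CPM with EV (log2 change 1.63 ± 0.15). ATP5F1D, of the ATP synthase stalk, averaged 569.7 ± 171 CPM with NICD1 and 114 ± 27.8 CPM with EV (log2 change 2.30 ± 0.27). Enzymes of the TCA cycle split, with 9 rising and 9 falling of 22 (median 0.06, GC-corrected 0.31), but 14 rose and 4 fell with the GC trend removed. Transcripts of the mitochondrial genome were mixed, with 3 of 13 rising and 4 falling (median -0.07). With the GC trend removed 8 rose and 1 fell, and the median turned to 0.36.

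**Figure D3:**
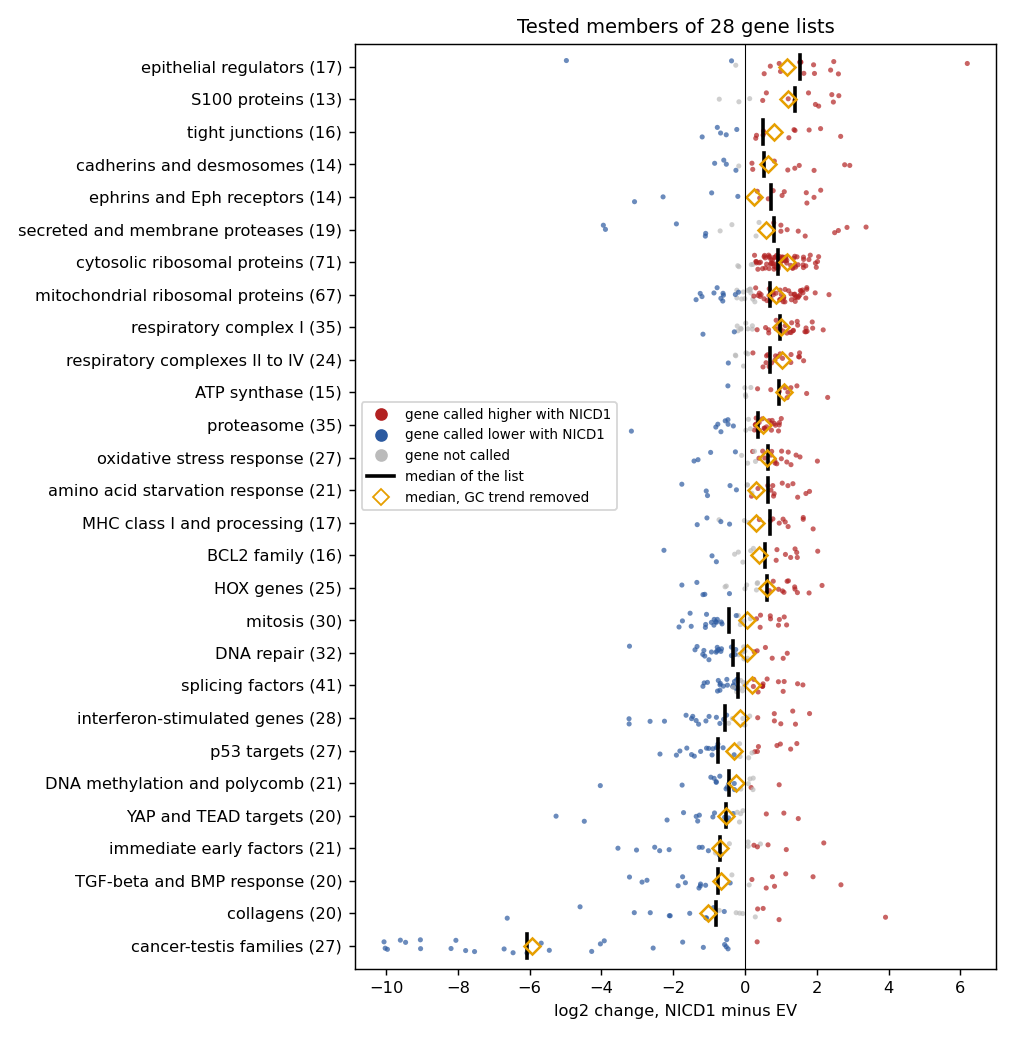
Log2 change of NICD1 minus EV for each tested member of 28 gene lists (number tested in brackets), coloured by call, with the list's median (black bar) and its median with the GC trend removed (orange diamond). Ribosomal, respiratory, S100 and epithelial genes lie to the right, cancer-testis genes far to the left, and the medians of mitosis, DNA repair and splicing genes cross 0 with the GC trend removed.

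Of 35 proteasome genes 24 rose and 8 fell, with a median of 0.35 (GC-corrected 0.49) that turned to -0.10 from library totals alone. Oxidative stress genes rose more often than they fell (17 and 4 of 27, median 0.64, GC-corrected 0.60). FTL, the ferritin light chain, averaged 2769.5 ± 109 CPM with NICD1 and 1040.5 ± 176 CPM with EV (log2 change 1.42 ± 0.13). GPX4, which reduces lipid peroxides, averaged 954 ± 117 CPM with NICD1 and 332 ± 61.5 CPM with EV (log2 change 1.53 ± 0.16). NQO1, a quinone reductase, averaged 392 ± 27.2 CPM with NICD1 and 195 ± 23.6 CPM with EV (log2 change 1.01 ± 0.11). PRDX3, the mitochondrial peroxiredoxin, fell (122 CPM with NICD1 against 316 CPM with EV, log2 change -1.42 ± 0.29), as did CAT, catalase (6.07 CPM with NICD1 against 15.2 CPM with EV, log2 change -1.31 ± 0.21). Of 25 heat shock chaperones 11 rose and 8 fell (median 0.14, GC-corrected 0.45). DNAJB4, a cochaperone, fell (log2 change -1.14 ± 0.16). HSPB1, a small heat shock protein, stood at 2419.7, 2873 and 2032 CPM with NICD1, against 492, 326 and 363 CPM with EV (log2 change 2.64 ± 0.19).

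Targets of the amino acid starvation response rose in 13 of 21 and fell in 5 (median 0.64, GC-corrected 0.30). ATF4, their transcription factor, did not pass the test (311 ± 6.51 CPM with NICD1 and 297 ± 12.2 CPM with EV, log2 change 0.07 ± 0.07). With the GC trend removed its change was -0.21, which passes the test. EIF4EBP1, a translation inhibitor, averaged 274 ± 44.7 CPM with NICD1 and 99.6 ± 22.3 CPM with EV (log2 change 1.47 ± 0.19). SLC38A2, an amino acid transporter, fell (58.9 CPM with NICD1 against 125 CPM with EV, log2 change -1.08 ± 0.10). In the BCL2 family 8 of 16 rose and 3 fell (median 0.55, GC-corrected 0.40). Both death-promoting and protective members were among them. BIK, which promotes cell death, averaged 119 ± 22.1 CPM with NICD1 and 28.9 ± 4.19 CPM with EV (log2 change 2.03 ± 0.19). BAX, which permeabilises mitochondria, averaged 253 ± 19.3 CPM with NICD1 and 106 ± 20.7 CPM with EV (log2 change 1.27 ± 0.13). BCL2L1, which protects, averaged 322 ± 21.9 CPM with NICD1 and 176 ± 2.67 CPM with EV (log2 change 0.87 ± 0.10), and the death-promoting BMF fell (0.406 CPM with NICD1 against 2.11 CPM with EV, log2 change -2.26 ± 0.35). MHC class I and peptide processing genes rose in 10 of 17 and fell in 4 (median 0.71, GC-corrected 0.32). B2M, the light chain shared by class I molecules, averaged 74.2 ± 19.9 CPM with NICD1 and 151 ± 6.92 CPM with EV (log2 change -1.06 ± 0.25, and -0.36 with the GC trend removed, which does not pass the test).

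The largest falls were in genes of the germline. MAGEC2, GAGE2A and MAGEC1, whose products are normally confined to testis and tumours, lie on chromosome X. Their promoters are shown because these genes fell together to at most 1 read in any NICD1 library. Below are the 150 bases before the transcription start, 5′ to 3′ on the gene's strand, from RefSeq on GRCh38.p14, with each CG dinucleotide in capitals.
MAGEC2: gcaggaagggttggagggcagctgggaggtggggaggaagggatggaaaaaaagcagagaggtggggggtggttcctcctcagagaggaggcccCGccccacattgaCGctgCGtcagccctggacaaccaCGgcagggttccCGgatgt
GAGE2A: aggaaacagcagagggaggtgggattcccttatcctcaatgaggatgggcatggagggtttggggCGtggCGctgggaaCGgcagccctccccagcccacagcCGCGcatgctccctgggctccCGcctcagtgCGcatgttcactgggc
MAGEC1: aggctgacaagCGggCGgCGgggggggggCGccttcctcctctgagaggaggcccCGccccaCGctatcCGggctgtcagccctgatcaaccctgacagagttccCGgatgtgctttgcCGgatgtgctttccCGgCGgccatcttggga
The MAGEC2 stretch is chrX:142205291-142205440 on the minus strand with 5 CG dinucleotides. The GAGE2A stretch is chrX:49589346-49589495 on the plus strand with 7, and the MAGEC1 stretch is chrX:141903744-141903893 on the plus strand with 11. MAGEC2 had 0, 1 and 1 reads with NICD1, against 1798, 3021 and 2480 with EV, an EV over NICD1 ratio of 2151 (595 to 17765). GAGE2A had 0, 1 and 0 reads with NICD1, against 2082, 1966 and 1999 with EV, a ratio of 3564 (639 to 140799). MAGEC1 had 0, 0 and 0 reads with NICD1, against 821, 1237 and 1024 with EV, at least 606-fold lower with NICD1 (3 reads over the group taken as the floor).

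Of 47 cancer-testis genes listed, 37 are in the table and 27 were tested. Of these 26 fell and 1, MAGED1, rose (median -6.07, GC-corrected -5.93). The 13 with 3 or fewer reads over NICD1 passed the filter on low counts only through other libraries and could not have been called higher, so these counts are a description. Members of the MAGEA and GAGE families are near copies of each other, and the division of reads between them is uncertain. Not all fell to the floor: MAGEB2 averaged 104 ± 8.34 CPM with NICD1 and 144 ± 4.04 CPM with EV (log2 change -0.47 ± 0.10, and -0.10 with the GC trend removed, which does not pass the test). PRAME averaged 43.8 ± 1.93 CPM with NICD1 and 65 ± 4.42 CPM with EV (log2 change -0.57 ± 0.07). Other germline and early embryo genes were among the 25 largest falls. SOHLH2, a germ cell transcription factor, stood at 0.0687, 0.273 and 0.109 CPM with NICD1, against 70.0, 51.2 and 59.9 CPM with EV (log2 change -8.32 ± 0.30). DPPA4, a pluripotency-associated gene, stood at 0.206, 0.273 and 0.0546 CPM with NICD1, against 20.8, 22.3 and 22.2 CPM with EV (log2 change -6.70 ± 0.50). In both genes every NICD1 library stood under 0.3 CPM and every EV library above 20. COX7B2, a testis form of a cytochrome c oxidase subunit, had 1, 1 and 1 reads with NICD1, against 1159, 1303 and 1336 with EV, an EV over NICD1 ratio of 746 (255 to 3619.9).

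In all, 194 genes had at least 30 reads in every EV library and at most 3 over the 3 NICD1 libraries, and 94 of them had 0 reads with NICD1. The reverse held for 5 genes: GRHL2, CR2, CYB5A, GLIS3-AS1 and HP. At a threshold of 100 reads the numbers were 63 and 2. These thresholds are on unscaled reads. Library totals times their TMM factors ran from 14556019 to 18308091 with NICD1 and from 22079275 to 32418974 with EV. Both limits are therefore met more easily by genes read in EV only, and the 2 numbers are not on an equal footing. Of the 194, 40 (20.6%) lie on chromosome 19 and 33 (17.0%) on chromosome X, which hold 7.12% and 3.59% of the tested genes, and 96 also had at most 3 reads over the 9 NICD2, NICD3 and NICD4 libraries. In bulk RNA, fewer cells with a transcript and less of it per cell cannot be told apart.

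**Figure D4:**
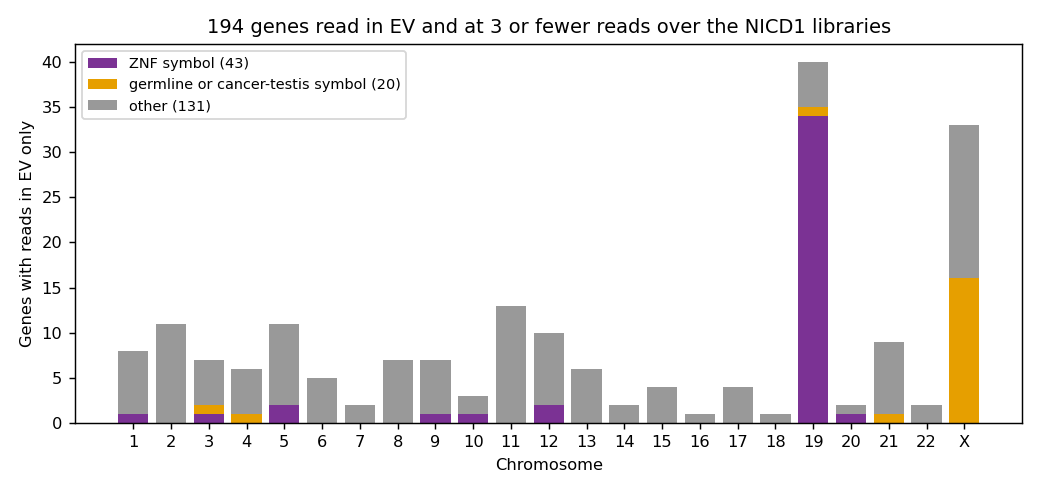
Number of genes per chromosome with at least 30 reads in every EV library and at most 3 reads over the 3 NICD1 libraries. Chromosome 19 holds 40, of which 34 have a ZNF symbol, and chromosome X holds 33; these chromosomes hold 7.12% and 3.59% of the tested genes.

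Among the 194, ESR1, the estrogen receptor alpha, had 0, 0 and 0 reads with NICD1, against 214, 326 and 283 with EV (at least 162-fold lower with NICD1). WNT5A, a ligand of noncanonical WNT signalling, had 0, 0 and 0 reads with NICD1, against 70, 146 and 99 with EV (at least 61.9-fold lower). DMD, the dystrophin gene, had 0, 0 and 0 reads with NICD1, against 153, 279 and 218 with EV (at least 128-fold lower). CCND2, a D-type cyclin, had 0, 2 and 0 reads with NICD1, against 61, 79 and 76 with EV, an EV over NICD1 ratio of 63.7 (17.4 to 529). Receptors and signalling genes of blood cells were read in EV too. CD3D, a chain of the T cell receptor complex, had 1, 0 and 0 reads with NICD1, against 169, 164 and 149 with EV. CSF1R, a macrophage growth factor receptor, had 0, 1 and 2 reads with NICD1, against 107, 174 and 162 with EV. PTPRC was at 0 reads in both groups, and the immune marker list summed to 9.5 to 11 CPM with NICD1 and 12.7 to 13.5 CPM with EV. Whether blood cells had a part in these reads was not tested. HP, the haemoglobin scavenger haptoglobin, had 39, 42 and 51 reads with NICD1, against 1, 0 and 0 with EV, and 1 read each over the NICD2, NICD3 and NICD4 libraries.

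Zinc finger genes made up 43 of the 194, and 34 of these lie on chromosome 19, which holds clusters of KRAB zinc finger repressor genes. Chosen by symbol after the values were seen, 191 ZNF genes on chromosome 19 were tested, of which 26 rose and 145 fell (median -1.46, GC-corrected -0.99). Of the 191, 57 had 3 or fewer reads over NICD1 and none had so few over EV, and these 57 passed the filter only through other libraries and could not have been called higher. The other 885 tested genes of that chromosome showed 596 rises and 124 falls (median 0.73, GC-corrected 0.26). ZNF genes elsewhere numbered 230, with 46 rises and 124 falls (median -0.46, GC-corrected -0.15). ZNF71 had 0, 0 and 0 reads with NICD1, against 179, 259 and 213 with EV (at least 128-fold lower with NICD1). ZNF529 had 0, 0 and 0 reads with NICD1, against 161, 226 and 178 with EV (at least 111-fold lower). Many of these genes share repeated zinc finger sequence, which limits how their reads were assigned. The median change over chromosome 19 was 0.54, over chromosome 11 it was 0.28 and over chromosome 13 it was -0.56. With the GC trend removed these became 0.14, 0.33 and -0.02.

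In promoters (250 bases before to 50 after the start, RefSeq, GRCh38.p14, matched by symbol for 10996 of 14289 tested genes with a symbol), 129 of the 194 genes read in EV only could be examined. Their median was 14 CG dinucleotides per promoter, against 26 over all 10996, at a median GC content of 57.7% against 65.3%. The RBPJ letters GTGGGAA, searched on both strands, stood in 6.17% of promoters of genes that rose by 1 or more (101 of 1638), in 5.67% of those that fell by as much (111 of 1959), and in 5.73% of all (630 of 10996). The AP-1 letters TGANTCA stood in 5.62% of risen and 5.26% of fallen genes against 4.73% of all, and the E-box CACGTG, which contains a CG dinucleotide, in 9.34% and 10.5% against 10.0%. In the 129 promoters of genes read in EV only, GTGGGAA stood in 5.43% (7), TGANTCA in 10.1% (13) and CACGTG in 8.53% (11). GTGGGAA was in 0 of the 35 of these with a ZNF symbol, in 8.28% of 169 promoters of ZNF genes on chromosome 19, and in 14.3% (4) of 28 promoters of MAGE, GAGE, PAGE, XAGE and SSX genes. In the same sets, in that order, TGANTCA stood in 11.4%, 7.1% and 10.7%, and CACGTG in 2.86%, 5.92% and 32.1% (9 of 28). The 28 include members of families that are near copies of each other.

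Of 9 mesenchymal genes 2 rose and 6 fell (median -0.88, GC-corrected -0.96), while the fibroblast marker list summed to 10.9 to 12.1 CPM with NICD1 and 15.5 to 20.8 CPM with EV, whose part in this was not tested. VIM, the intermediate filament vimentin, stood at 0.824, 0.341 and 0.71 CPM with NICD1, against 22, 21.4 and 21.7 CPM with EV (log2 change -5.08 ± 0.32, adjusted p = 8.3e-09). SPARC, a matricellular protein, averaged 0.26 ± 0.0895 CPM with NICD1 and 6.4 ± 0.386 CPM with EV (log2 change -4.40 ± 0.44). ZEB1, a repressor of epithelial genes, averaged 1.03 ± 0.195 CPM with NICD1 and 5.63 ± 0.56 CPM with EV (log2 change -2.39 ± 0.19). Of 20 collagen genes 4 rose and 11 fell (median -0.80, GC-corrected -1.04). COL3A1 had 0, 0 and 0 reads with NICD1, against 115, 205 and 119 with EV (at least 86.2-fold lower with NICD1). COL6A3 averaged 1.19 ± 0.197 CPM with NICD1 and 7.66 ± 0.983 CPM with EV (log2 change -2.64 ± 0.17). COL13A1, a transmembrane collagen, rose to 3.1 CPM with NICD1 against 0.171 CPM with EV (log2 change 3.92 ± 0.30). EV libraries lay above every NICD1 library in all of these but COL13A1. EFEMP2, ANGPTL2 and FMN1 were also among the 25 largest falls. EFEMP2, a fibulin of elastic fibres, averaged 0.775 ± 0.283 CPM with NICD1 and 17.5 ± 1.72 CPM with EV (log2 change -4.45 ± 0.22). ANGPTL2, a secreted angiopoietin-like protein, averaged 0.419 ± 0.0687 CPM with NICD1 and 10.9 ± 0.543 CPM with EV (log2 change -4.54 ± 0.33). FMN1, an actin-nucleating formin, averaged 0.451 ± 0.134 CPM with NICD1 and 30.4 ± 4.66 CPM with EV (log2 change -5.93 ± 0.39).

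Of 20 genes of TGF-beta and BMP signalling, a list that mixes ligands, receptors and matrix binders with response genes, 11 fell and 7 rose (median -0.75, GC-corrected -0.66). The receptor TGFBR2 stood at 1.58, 0.75 and 1.64 CPM with NICD1, against 8.38, 9.96 and 10.2 CPM with EV (log2 change -2.87 ± 0.41). Among feedback inhibitors and targets, SMAD7 averaged 0.634 ± 0.318 CPM with NICD1 and 4.22 ± 0.711 CPM with EV (log2 change -2.73 ± 0.49). PMEPA1 averaged 0.305 ± 0.159 CPM with NICD1 and 3.09 ± 0.382 CPM with EV (log2 change -3.22 ± 0.36). The ligand BMP4 averaged 176 ± 31.9 CPM with NICD1 and 423 ± 35.8 CPM with EV (log2 change -1.28 ± 0.18). LTBP3, which holds latent TGF-beta in the matrix, rose (427 ± 104 CPM with NICD1 and 66.2 ± 11.5 CPM with EV, log2 change 2.67 ± 0.20). Of 20 YAP and TEAD genes 13 fell and 3 rose (median -0.54, GC-corrected -0.53). CCN1, a secreted matricellular target, stood at 54.2, 55.3 and 54 CPM with NICD1, against 247, 241 and 249 CPM with EV (log2 change -2.17 ± 0.09). ANKRD1, a nuclear cofactor, averaged 0.269 ± 0.0617 CPM with NICD1 and 7.1 ± 0.942 CPM with EV (log2 change -4.48 ± 0.21). YAP1 itself did not pass the test (16.1 ± 2.36 CPM with NICD1 and 18.6 ± 1.59 CPM with EV, log2 change -0.21 ± 0.14). With the GC trend removed its change was 0.31, which passes the test.

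Immediate early factors fell in 11 of 21 and rose in 5 (median -0.69, GC-corrected -0.71). EGR1, a zinc finger factor induced by growth signals, stood at 29.2, 26.1 and 26.2 CPM with NICD1, against 111, 126 and 117 CPM with EV (log2 change -2.11 ± 0.07). EGR3 averaged 0.192 ± 0.024 CPM with NICD1 and 2.8 ± 0.111 CPM with EV (log2 change -3.54 ± 0.39). The orphan receptor NR4A2 averaged 1.1 ± 0.376 CPM with NICD1 and 9.04 ± 0.308 CPM with EV (log2 change -3.02 ± 0.23). FOSL1, an AP-1 subunit, went the other way at 685, 850.1 and 621 CPM with NICD1, against 178, 141 and 149 CPM with EV (log2 change 2.20 ± 0.17). FOS fell (3.02 CPM with NICD1 against 7.28 CPM with EV, log2 change -1.28 ± 0.23).

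WNT feedback genes included RNF43, a ligase that removes WNT receptors, which averaged 0.556 ± 0.103 CPM with NICD1 and 8.35 ± 0.836 CPM with EV (log2 change -3.79 ± 0.42). AXIN2, a component of the catenin destruction complex, averaged 2.54 ± 0.441 CPM with NICD1 and 6.44 ± 1.5 CPM with EV (log2 change -1.31 ± 0.22). Over the list 3 of 16 rose and 6 fell (median -0.22, GC-corrected -0.37), against 35.6% rising and 39.8% falling among all genes. Falls were thus about as common as elsewhere. With the GC trend removed 1 rose and 8 fell, against 41.4% and 29.1% of all genes. Among semaphorins, plexins and neuropilins, 4 of 24 rose and 9 fell (median -0.17, GC-corrected -0.59), again with falls about as common as among all genes. With the GC trend removed 4 rose and 15 fell. NRP1, a coreceptor of semaphorins and VEGF, averaged 2.79 ± 0.855 CPM with NICD1 and 12 ± 1.44 CPM with EV (log2 change -2.12 ± 0.21). Of 11 mucin and trefoil genes of the epithelial surface 4 rose and 6 fell (median -0.80, GC-corrected -1.46). TFF2, a secreted trefoil peptide, had 1, 0 and 0 reads with NICD1, against 132, 146 and 104 with EV. MUC2, the gel-forming intestinal mucin, fell (0.159 CPM with NICD1 against 0.867 CPM with EV, log2 change -2.47 ± 0.71). MUC1, a membrane mucin, rose (5.0 CPM with NICD1 against 1.75 CPM with EV, log2 change 1.47 ± 0.26), though not with the GC trend removed (0.28).

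**Figure D5:**
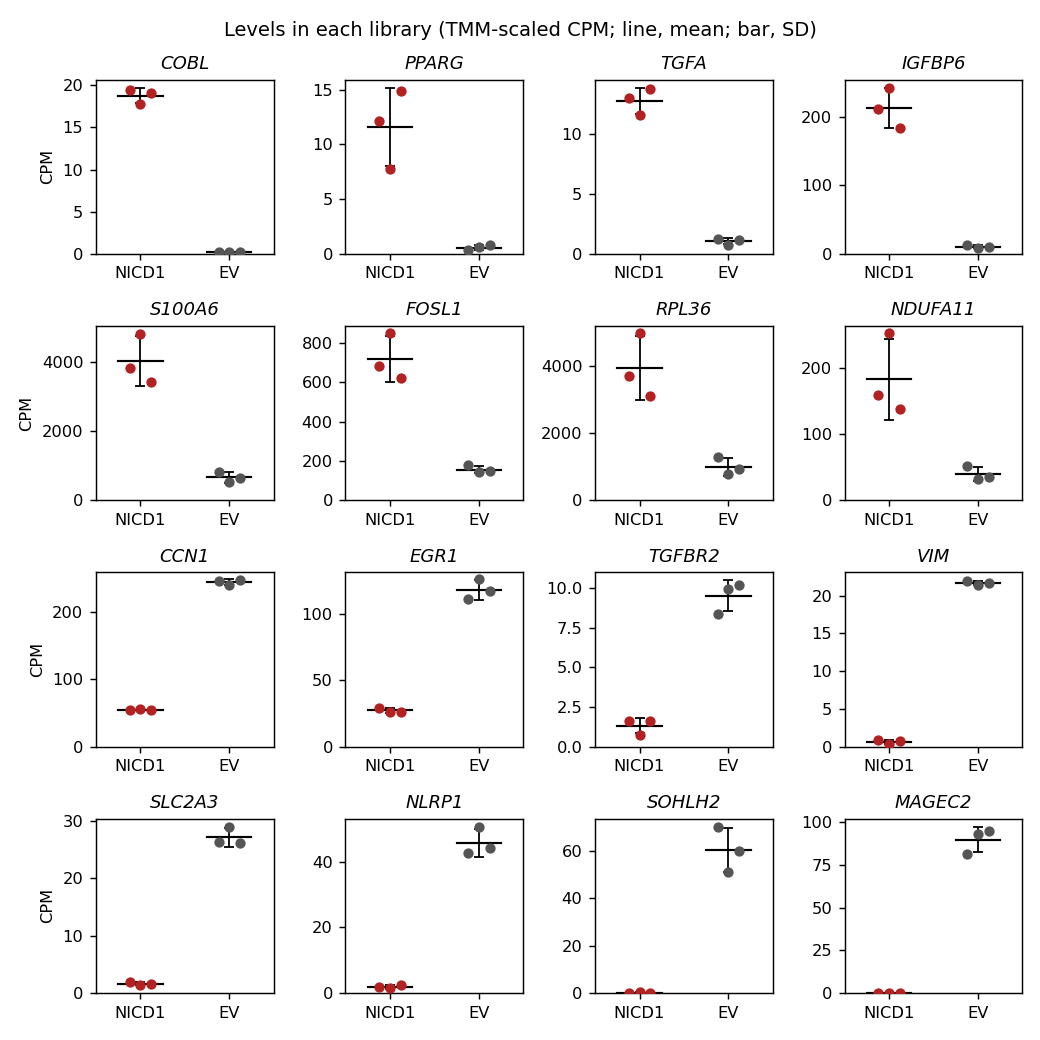
Levels in TMM-scaled CPM in each of the 3 NICD1 and 3 EV libraries for 16 genes, with the mean (line) and SD (bar); each vertical axis starts at 0 and has its own scale. The genes were picked with their values known, and in no panel does an NICD1 library overlap an EV library.

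Targets of p53 fell in 16 of 27 and rose in 7 (median -0.75, GC-corrected -0.30). TP53INP1, which promotes cell death, averaged 4.3 ± 0.22 CPM with NICD1 and 22.4 ± 1.12 CPM with EV (log2 change -2.37 ± 0.11). GADD45A, a stress gene of growth arrest, averaged 22.3 ± 5.32 CPM with NICD1 and 67.3 ± 3.63 CPM with EV (log2 change -1.62 ± 0.21). CDKN1A, the cell cycle inhibitor p21, did not pass the test (192 ± 12.4 CPM with NICD1 and 213 ± 8.83 CPM with EV, log2 change -0.15 ± 0.09), but fell by 0.52 with the GC trend removed. Interferon-stimulated genes fell in 15 of 28 and rose in 7 (median -0.55, GC-corrected -0.14). BST2, the virus tether tetherin, averaged 5.27 ± 0.787 CPM with NICD1 and 25.2 ± 4.2 CPM with EV (log2 change -2.24 ± 0.20). OAS3, an RNA sensor, averaged 7.17 ± 1.15 CPM with NICD1 and 19.7 ± 3.08 CPM with EV (log2 change -1.45 ± 0.14). ISG15, a ubiquitin-like modifier, rose and averaged 396 ± 87.6 CPM with NICD1 and 114 ± 27.8 CPM with EV (log2 change 1.80 ± 0.22), and so did IFITM3, a membrane antiviral protein, at 349 ± 14 CPM with NICD1 and 133 ± 22.2 CPM with EV (log2 change 1.41 ± 0.11). NLRP1, an inflammasome sensor, stood at 1.72, 1.36 and 2.51 CPM with NICD1, against 42.6, 50.6 and 44 CPM with EV (log2 change -4.62 ± 0.18).

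Chromatin writers mostly fell: of 21 DNA methylation and polycomb genes 13 fell and 2 rose (median -0.45, GC-corrected -0.24). The maintenance methyltransferase DNMT1 averaged 90.7 ± 17.6 CPM with NICD1 and 146 ± 20.7 CPM with EV (log2 change -0.70 ± 0.16, -0.90 with the GC trend removed). The polycomb subunit BMI1 averaged 17.2 ± 2.08 CPM with NICD1 and 57.9 ± 5.88 CPM with EV (log2 change -1.75 ± 0.15, -0.98 with the GC trend removed). RBBP4, a histone chaperone shared by several complexes, stood at 3.02, 1.71 and 4.04 CPM with NICD1, against 26, 70.4 and 52.5 CPM with EV (log2 change -4.03 ± 0.48), with EV replicate 1 the lowest of its group. In metabolism, SLC2A3, the glucose transporter GLUT3, stood at 1.92, 1.43 and 1.53 CPM with NICD1, against 26.3, 29 and 26.1 CPM with EV (log2 change -4.02 ± 0.14). The glycolytic enzyme GPI averaged 1058 ± 103 CPM with NICD1 and 427 ± 12.9 CPM with EV (log2 change 1.30 ± 0.13). Of 21 glycolysis genes, SLC2A3 and GPI among them, 10 rose and 6 fell (median 0.20, GC-corrected 0.09). HIF1A, the hypoxia factor, fell (9.87 ± 3.23 CPM with NICD1 and 42.8 ± 6.97 CPM with EV, log2 change -2.15 ± 0.23). ANGPTL4, one of its targets, rose (7.18 ± 1.31 CPM with NICD1 and 1.29 ± 0.373 CPM with EV, log2 change 2.45 ± 0.22). Of 21 hypoxia response genes, HIF1A and ANGPTL4 among them, 5 rose and 10 fell (median -0.41, GC-corrected -0.13).

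Cell division genes gave no single direction. Of 30 mitosis genes 9 rose and 16 fell (median -0.44), and the median turned to 0.06 with the GC trend removed. MKI67, a proliferation antigen, averaged 541 ± 46.9 CPM with NICD1 and 241 ± 6.09 CPM with EV (log2 change 1.16 ± 0.10). AURKB, a mitotic kinase, averaged 151 ± 9.38 CPM with NICD1 and 79.6 ± 12.5 CPM with EV (log2 change 0.93 ± 0.11). KIF20A, a kinesin of cytokinesis, averaged 15.3 ± 4.85 CPM with NICD1 and 53.5 ± 8.08 CPM with EV (log2 change -1.84 ± 0.28). DNA repair genes had a median of -0.33 that turned to 0.05, and splicing factors a median of -0.20 that turned to 0.21. The list of D and E cyclins and CDK inhibitors, which also holds CDK4 and RB1, had 7 rises and 7 falls of 20 (median -0.04, GC-corrected -0.23). CDK4, which drives cells into S phase, averaged 58.2 ± 25.1 CPM with NICD1 and 157 ± 8.48 CPM with EV (log2 change -1.55 ± 0.39). RB1, the retinoblastoma protein gene, averaged 4.52 ± 1.02 CPM with NICD1 and 16.6 ± 1.36 CPM with EV (log2 change -1.89 ± 0.17).

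The others of the 25 largest falls were GAGE12H, GAGE1, OVAAL, MAGEA6, SSX1, TMEM132D-AS1, MAGEA1, CKM, TENM1, CD33, FAM111A and PAGE1, with log2 changes from -8.31 to -4.03; those of genes near 0 reads depend on the pseudocount. TMEM132D-AS1 is antisense to TMEM132D, and since the kit is not described as stranded, reads of the pair cannot be told apart.

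Which levels set NICD1 apart from the other intracellular domains was asked by a contrast of NICD1 with the mean of the NICD2, NICD3 and NICD4 groups, in which EV takes no part. It called 1344 genes (8.89% of those tested), 683 higher (4.52%) and 661 lower (4.37%), and by at least 1 on the log2 scale 108 higher (0.714%) and 201 lower (1.33%). The numbers were 328 and 383 without NICD1 replicate 1, and 338 and 422 without NICD1 replicate 2. Without NICD4 replicate 1, whose labels conflict between NICD4 and NICD3, they were 950 and 954. S100A14, an epithelial calcium-binding protein, averaged 60.3 ± 7.48 CPM with NICD1, against 6.23, 13.8 and 3.11 CPM with NICD2, NICD3 and NICD4 (log2 difference 3.22 ± 0.16, adjusted p = 7.6e-09), and 11 ± 2.05 CPM with EV. ITGB4 averaged 126 ± 16.7 CPM with NICD1, against 26.7, 72.9 and 53 CPM with NICD2, NICD3 and NICD4 (log2 difference 1.42 ± 0.10). FGFBP1, a carrier that releases FGFs from the matrix, averaged 56.7 ± 2.09 CPM with NICD1, against 27.1, 34.5 and 10.2 CPM with NICD2, NICD3 and NICD4 (log2 difference 1.42 ± 0.06), and 35.5 ± 1.57 CPM with EV. These 3 genes were higher with NICD1 than in each of the other 4 groups.

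Of the 10 largest upward differences, HBE1, CPA4, TENM1, CAMK2B and NFE4 were called below EV. HBE1, the embryonic beta-like globin, averaged 13.2 ± 1.54 CPM with NICD1, against 8.68, 1.24 and 4.78 CPM with NICD2, NICD3 and NICD4 (log2 difference 1.81 ± 0.12), and 43.8 ± 4.46 CPM with EV. CPA4, a carboxypeptidase, averaged 9.53 ± 1.27 CPM with NICD1, against 1.6, 2.78 and 1.96 CPM in the other NICD groups (log2 difference 2.19 ± 0.14), and 22 ± 0.912 CPM with EV. TENM1, a teneurin adhesion receptor, averaged 0.497 ± 0.15 CPM with NICD1, against 0.0269, 0.0975 and 0 CPM in the other NICD groups (log2 difference 2.70 ± 0.33, a size that depends on the pseudocount since NICD4 had no read), and 19.4 ± 1.02 CPM with EV. CAMK2B, a calmodulin-dependent kinase, averaged 2.27 ± 0.232 CPM with NICD1 and 4.19 ± 0.705 CPM with EV (log2 change -0.86 ± 0.28). NFE4, a globin gene regulator, averaged 2.53 ± 0.128 CPM with NICD1 and 4.41 ± 0.389 CPM with EV (log2 change -0.79 ± 0.25, and -0.45 with the GC trend removed, which does not pass the test). CYP4F11, a fatty acid hydroxylase, did not pass the test against EV (3.63 ± 0.426 CPM with NICD1 and 4.98 ± 0.239 CPM with EV), although its 3 NICD1 libraries lay below the 3 EV libraries. HS3ST1, a heparan sulphate sulphotransferase, rose against EV (6.27 ± 0.71 CPM with NICD1 and 1.59 ± 0.296 CPM with EV, log2 change 1.96 ± 0.24). Their log2 differences from the other NICD groups ran from 1.52 to 2.89.

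In the other direction PAGE1, a cancer-testis gene, averaged 22.9 ± 3.31 CPM with NICD1, against 987, 1053 and 1964 CPM with NICD2, NICD3 and NICD4 (log2 difference -5.78 ± 0.17, adjusted p = 3.3e-11), and 379 ± 94.8 CPM with EV. TMEM132D-AS1 averaged 0.639 ± 0.223 CPM with NICD1, against 5.09, 9.6 and 99.2 CPM in the other NICD groups (log2 difference -4.65 ± 0.16), and 72.1 ± 12.2 CPM with EV. In these and all other genes named in this direction the NICD1 libraries were the lowest of the 5 groups. Lying below NICD2, NICD3 and NICD4 was required by the rule that chose them, and lying below EV was not. SLC2A3 averaged 1.63 ± 0.26 CPM with NICD1, against 5.14, 19.2 and 7.21 CPM in the other NICD groups (log2 difference -2.42 ± 0.11). CCN1 averaged 54.5 ± 0.725 CPM with NICD1, against 203, 161 and 104 CPM in the other NICD groups (log2 difference -1.46 ± 0.08). PRKCQ, a protein kinase C of lymphocytes, averaged 1.0 ± 0.0774 CPM with NICD1, against 2.27, 3.22 and 4.81 CPM in the other NICD groups (log2 difference -1.65 ± 0.12), and 11.4 ± 0.754 CPM with EV. The other 5 were TRIML2, KIAA0586, which builds cilia, CSTA, a cystatin protease inhibitor, KCNK9, a potassium channel, and NSMCE3, a subunit of the SMC5 and SMC6 complex, with log2 differences from -1.87 to -1.59.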

How the data were processed

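The authors deposited log2(count + 1) values of 31352 Ensembl genes in 15 libraries, per the file headers. TopHat2 2.0.6, HTSeq and GRCh37 stand in the submitters' processing notes, and polyA libraries in the labels' protocols. Whether counting used strand is not given in the sources used here. Reads were recovered as 2 to the deposited value minus 1, and 100% came out whole within 0.001. The 6 libraries used here hold 15648211 to 24484366 reads. Each library is a replicate, and since separate cultures are not stated, the p-values reflect how libraries of a group vary, possibly for technical reasons only. The members and lists were chosen with earlier results of these data known.

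Counts were scaled by TMM factors (30% of M and 5% of A values trimmed) and kept where a gene reached 10 reads at the median depth in 3 libraries and 15 in all, leaving 15122. Values of log2(scaled count + 1), where the pseudocount is worth 0.0544 CPM and understates changes of low genes, were fitted with limma 3.58.1 (R 4.3.3, statmod 1.5.0) over group means of all 15 libraries with a trended, robust prior. Voom weights on the recovered reads were an alternative. The procedure was run on simulated data in which few genes changed, equally up and down, and without a GC trend. How it performs where most genes change, as here, was not tested. GC content and length came from the longest GENCODE transcript, and the GC trend was removed per library by loess with a span of 0.5. Symbols were found for 25225 identifiers.

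Named genes are the 25 largest rises and 25 largest falls against EV among called genes averaging a log2 CPM of at least 1 whose groups do not overlap, without keratins and NOTCH genes, 10 each way against the other NICD groups, members of fixed lists, and genes read in 1 group only. Some genes the rule names are not reported here. Examples within lists, the families by symbol, the chromosomes and the grouping by length were picked after values were seen. Intervals and floors of 3 reads cover counting error only. Alternatives were another normalization, pseudocount, filter, weighting, prior, set of libraries, GC removal, a replicate block and leaving out each library. The labels of 1 NICD4 library, replicate 1, conflict: its title gives NICD4 and other fields NICD3. The title was followed.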

Additional observations from a re-analysis of the deposited data

Results flagged for a closer look

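The differences between NICD1 and the mean of NICD2, NICD3 and NICD4 were tested directly by a contrast in limma, and the 10 largest in each direction among genes whose 3 NICD1 libraries lay on 1 side of all 9 others are listed for that reason. Above the other domains, the log2 difference was 3.22 for S100A14, 2.89 for CYP4F11, 2.70 for TENM1, 2.19 for CPA4 and 1.82 for CAMK2B. It was 1.81 for HBE1, 1.57 for HS3ST1, 1.52 for NFE4, 1.42 for ITGB4 and 1.42 for FGFBP1. Below the other domains, it was -5.78 for PAGE1, -4.65 for TMEM132D-AS1, -2.42 for SLC2A3, -1.87 for TRIML2 and -1.72 for KIAA0586. It was -1.67 for CSTA, -1.65 for PRKCQ, -1.63 for KCNK9, -1.59 for NSMCE3 and -1.46 for CCN1.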

How the results depend on the processing

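From library totals alone 3308 genes rose and 8486 fell against EV, and with the GC trend removed 6102 rose and 4289 fell. Leaving out 1 library gave 4875 to 5236 rises and 5097 to 5892 falls. Against the other NICD groups it gave 328 to 950 higher and 383 to 954 lower, the lowest without NICD1 replicate 1 and the highest without NICD4 replicate 1. Genes read in 1 group only numbered 2 in NICD1 and 63 in EV at 100 reads.

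Same-numbered NICD1 and EV libraries did not deviate together (correlations -0.0523, -0.233 and 0.0896). With 3 libraries a group, such correlations cannot show whether same-numbered libraries were prepared together. A replicate block gave 5358 rises and 6000 falls, and 6058 and 4289 with the GC trend removed, and against the other NICD groups 698 higher and 660 lower, and 963 and 819 with the GC trend removed.

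Of the named genes, ATF4 turned to -0.389 from library totals alone and to -0.214 with the GC trend removed, and YAP1 to 0.3117 with the GC trend removed, both values alike under the replicate block with that removal. Each of these values passed the test in its alternative fit. The chromosome medians, alternatives chosen after seeing the data, moved with library totals alone to 0.0921 on chromosome 19, -0.165 on chromosome 11 and -1.01 on chromosome 13. With the GC trend removed they were 0.137, 0.334 and -0.018, and median-of-ratios factors gave 0.301 on chromosome 11. The cause was not tested. All other alternatives run kept each count within 1.5 times its value. Depth limits the genes read in 1 group only, where 3 reads are the floor.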
